A study of Mus musculus with 15 samples.

Results

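Dbp, Tef, Hlf, Nfil3, Bhlhe40, Bhlhe41, Ciart, Usp2, Rgs16 and Upp2 are genes through which the circadian clock of the liver acts on other genes and on metabolism. They were picked out by gene symbol, as 10 of the 18510 rows of an expression table, and all 10 were among the 10959 genes that reached 1 FPKM in at least 5 of 15 libraries. Messenger RNA was sequenced from the livers of 15 mice labelled WT, with 5 on a control diet (Ctrl), 5 on an alcohol diet (Alc) and 5 on an alcohol diet with UA (Alc UA), an abbreviation that the labels leave unexplained. The sources used here do not give the strain, age and sex of the mice, the length of feeding or the hour at which the livers were taken. Levels are in FPKM, sequenced fragments scaled for transcript length and library size. The numbers 1 to 5 name the mice of a group, and the labels give no pairing between groups.

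In the mammalian clock, CLOCK and BMAL1 bind E-box elements and switch on genes whose products later repress them. The same activators drive Dbp and other output genes, so that levels of these messenger RNAs in the liver swing over the day. DBP, TEF and HLF, the PAR bZIP factors named for a domain rich in proline and acidic residues, activate genes through D-box elements. NFIL3 is a repressor that binds the same elements, and its messenger RNA is at its peak when that of Dbp is low. BHLHE40, BHLHE41 and CIART feed back on the activators, and USP2, RGS16 and UPP2 act outside transcription, in protein turnover, hormone signalling and nucleotide metabolism.

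Promoter sequence was found in RefSeq tables of build GRCm38.p6 for 9 of the 10 genes, in 11 windows, since Tef and Upp2 have 2 start sites each. The 250 bases before the start site were searched on both strands for 6 motifs. The E-box CACGTG was present in 4 of the 11 windows, or 36.4%, and in 3 genes, beside 6.02% of all 32841 windows of this length. Ciart held 3 copies, at 116 to 111, 58 to 53 and 44 to 39 bases before the start. Tef held 1 before each start, at 127 to 122 and at 138 to 133 bases, and Bhlhe41 held 1 at 153 to 148 bases. The cAMP element TGACGTCA was present before Hlf at 9 to 2 bases, and in 1.55% of all windows. The half-site AGGTCA of the ROR and REV-ERB receptors was present before Nfil3 at 12 to 7 bases and in 1 window of Upp2, in 2 copies, and in 14.0% of all windows. The E-box variant CACGTT, present in 3.85% of all windows, the D-box TTANGTAA in 2.06% and the longer ROR element, in 0.177%, were not found in these 11 windows. The half-site lies within the longer ROR element, and no other motif searched contains another. Besides Dbp, the windows of Hlf, Usp2, Rgs16 and Upp2, which were also higher in both alcohol groups, held no E-box, nor did that of Nfil3. A match describes letters and not a bound site, and the absence of one describes only these 250 bases. The windows with an E-box are shown because they carry the element through which the clock acts, and that of Dbp because its messenger RNA is high in both alcohol groups without such a match there; capitals mark CACGTG, sequences run 5′ to 3′ on the strand of the gene, and the regions are chr3:95882229-95882478 (minus strand) for Ciart, chr15:81802423-81802672 and chr15:81811164-81811413 (plus strand) for Tef, chr6:145865421-145865670 (minus strand) for Bhlhe41 and chr7:45704997-45705246 (plus strand) for Dbp.
Ciart: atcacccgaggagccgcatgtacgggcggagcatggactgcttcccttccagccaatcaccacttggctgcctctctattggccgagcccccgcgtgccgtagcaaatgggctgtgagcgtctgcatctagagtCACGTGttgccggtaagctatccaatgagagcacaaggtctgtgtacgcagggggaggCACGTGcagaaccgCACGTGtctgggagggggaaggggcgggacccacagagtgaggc
Tef, start 1: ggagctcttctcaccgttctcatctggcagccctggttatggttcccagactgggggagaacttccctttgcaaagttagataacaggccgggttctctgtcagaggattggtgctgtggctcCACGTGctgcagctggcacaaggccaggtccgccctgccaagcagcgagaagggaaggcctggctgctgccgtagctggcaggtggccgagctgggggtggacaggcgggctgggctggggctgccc
Tef, start 2: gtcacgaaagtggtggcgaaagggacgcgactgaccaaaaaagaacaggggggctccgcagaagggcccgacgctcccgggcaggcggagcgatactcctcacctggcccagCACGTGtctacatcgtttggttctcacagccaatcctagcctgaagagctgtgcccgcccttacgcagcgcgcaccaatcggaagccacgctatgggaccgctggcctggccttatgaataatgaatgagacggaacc
Bhlhe41: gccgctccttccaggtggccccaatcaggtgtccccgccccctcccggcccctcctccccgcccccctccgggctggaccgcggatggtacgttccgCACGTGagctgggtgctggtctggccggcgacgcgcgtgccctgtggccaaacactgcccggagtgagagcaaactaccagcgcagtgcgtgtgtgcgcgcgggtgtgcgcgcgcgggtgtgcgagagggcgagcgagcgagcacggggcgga
Dbp: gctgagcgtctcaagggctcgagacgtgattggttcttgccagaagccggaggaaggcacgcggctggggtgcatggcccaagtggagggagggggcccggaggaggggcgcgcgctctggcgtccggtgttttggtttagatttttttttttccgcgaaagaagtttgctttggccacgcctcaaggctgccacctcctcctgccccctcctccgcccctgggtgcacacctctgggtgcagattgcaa

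**Figure D1:**
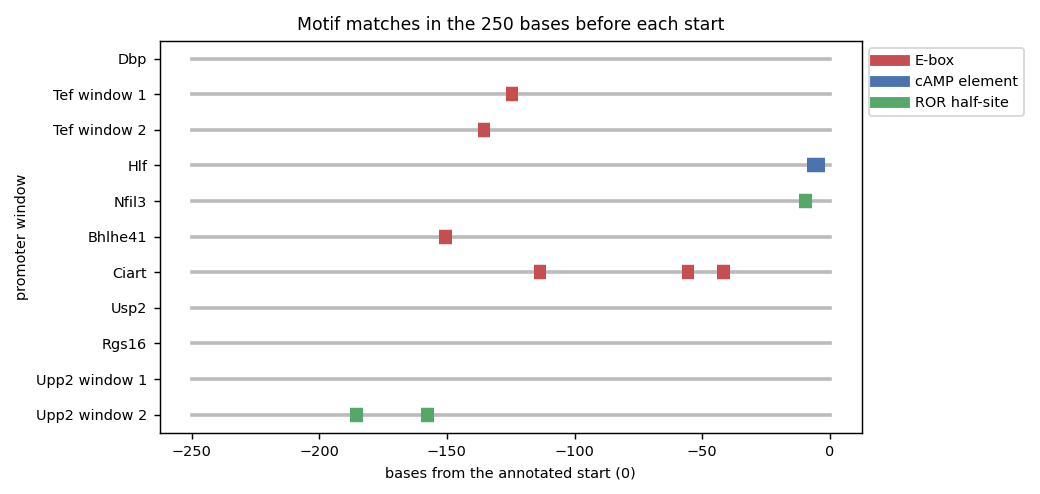
Motif matches in the 250 bases before each start site, with distance from the start in bases on the x axis and 1 row per window, colored by motif. Ciart has 3 E-boxes, Tef has 1 before each start and Bhlhe41 has 1.

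Per library, FPKM added up to 551153 to 668832 and 10119 to 11471 genes reached 1 FPKM, while the read number is unknown. Libraries of a group correlated over genes, which are no independent replicates, with Pearson r of 0.960 or more, and no pair within a group was identical. On the first principal component Ctrl 5 lay closest to the alcohol groups, at -6.04, and the remaining controls between -48.5 and -30.2. Hepatocyte markers were abundant in every library, with a summed level of 38426 to 74558 FPKM over 10 markers. The members were chosen with results of Alc against Ctrl known. Values against Ctrl are therefore given for them as a description without a test, and only Alc UA against Alc, which shares the Alc libraries with that contrast, was tested. Differences are of log2(FPKM + 1) with their SE, and this scale understates the change of weakly expressed genes.

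The 3 PAR bZIP activators were all higher in both alcohol groups, and Dbp differed most. Dbp stood in the Ctrl livers at 3.09, 3.93, 4.25, 3.62 and 6.65 FPKM for mice 1 to 5. In Alc it stood at 65.6, 88.8, 126, 73.5 and 62.9 FPKM, and in Alc UA at 72.5, 63.5, 94.0, 78.7 and 57.9 FPKM. Every alcohol liver lay above every control, and the means were 4.31 ± 1.38, 83.3 ± 25.8 and 73.3 ± 14.1 FPKM (SD, n = 5). The Alc mean was 19.3 times the Ctrl mean, a log2 difference of 3.98 ± 0.20 for Alc and 3.82 ± 0.20 for Alc UA. Ctrl 5, the control nearest to the alcohol libraries over all genes, also had the highest Dbp among controls, at 6.65 FPKM, but lay well below the lowest alcohol liver at 57.9 FPKM.

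Tef, the second activator of the family, stood at 15.8, 21.9, 20.8, 13.3 and 18.0 FPKM in Ctrl. The Alc livers had 59.1, 63.8, 83.4, 52.7 and 55.9 FPKM and the Alc UA livers 54.5, 47.4, 61.9, 68.6 and 55.8 FPKM. The groups did not overlap with Ctrl, with means of 17.9 ± 3.52, 63.0 ± 12.2 and 57.6 ± 7.995 FPKM (SD, n = 5) and log2 differences of 1.76 ± 0.15 for Alc and 1.64 ± 0.15 for Alc UA. Hlf had the smallest fold of the 3. Its Ctrl values were 9.43, 9.69, 8.32, 6.50 and 8.81 FPKM, its Alc values 15.5, 15.2, 15.8, 16.4 and 14.8 FPKM and its Alc UA values 12.3, 11.4, 11.5, 14.2 and 14.1 FPKM. Both alcohol groups lay above Ctrl, and all 5 Alc UA livers lay below every Alc liver. The means were 8.55 ± 1.26, 15.6 ± 0.610 and 12.7 ± 1.36 FPKM (SD, n = 5), and the Alc livers differed little among themselves, with a coefficient of variation of 3.92%.

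The summed level of the 3 activators was 30.8 ± 4.90 FPKM in Ctrl, 162 ± 37.7 in Alc and 144 ± 20.04 in Alc UA (SD, n = 5). Their make-up also differed. Dbp gave 14.0% ± 3.75 of the sum in Ctrl, 50.8% ± 3.90 in Alc and 50.8% ± 4.07 in Alc UA, while Tef gave 58.1%, 39.2% and 40.2% and Hlf 27.9%, 9.96% and 8.97%. Tef was thus the most abundant of the 3 in controls and Dbp in both alcohol groups.

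**Figure D2:**
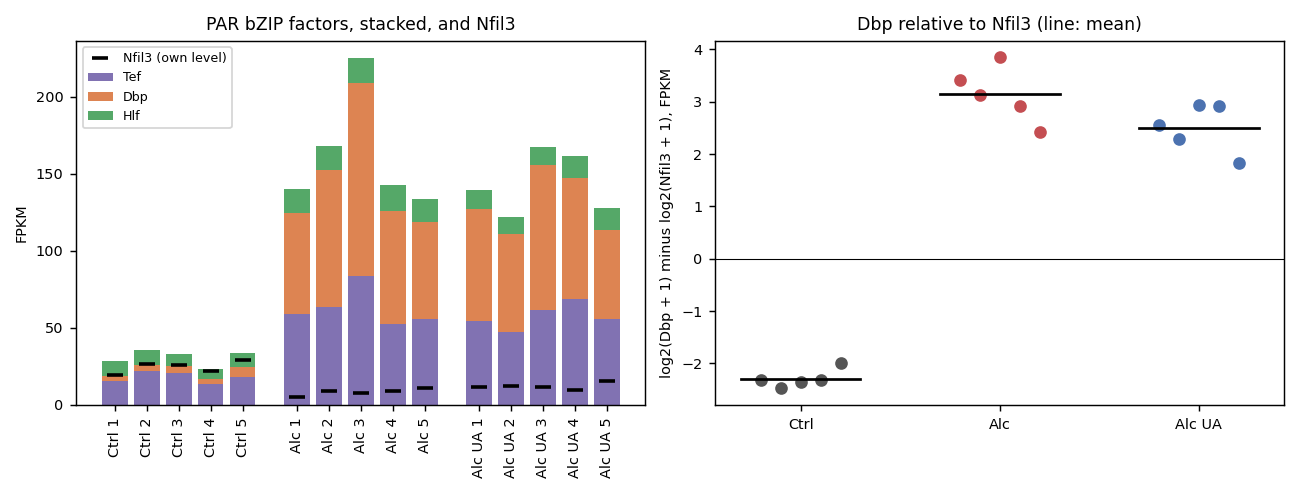
PAR bZIP activators and their opposing repressor by liver, in FPKM and on a log2 scale. Summed Dbp, Tef and Hlf lie between 23.4 and 35.5 FPKM in Ctrl and at 122 or more in both alcohol groups.

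Nfil3, the repressor, was the member that was lower. Its Ctrl values were 19.4, 26.5, 25.9, 21.9 and 29.3 FPKM, its Alc values 5.21, 9.27, 7.80, 8.80 and 11.0 FPKM and its Alc UA values 11.6, 12.2, 11.4, 9.58 and 15.5 FPKM. Neither alcohol group overlapped with Ctrl. The means were 24.6 ± 3.92, 8.41 ± 2.12 and 12.05 ± 2.15 FPKM (SD, n = 5), so that the Ctrl mean was 2.93 times the Alc mean, with log2 differences of -1.46 ± 0.16 for Alc and -0.97 ± 0.16 for Alc UA. Set against each other within a liver, log2 Dbp minus log2 Nfil3 was -2.29 ± 0.18 in Ctrl, 3.15 ± 0.54 in Alc and 2.504 ± 0.46 in Alc UA (SD, n = 5): the repressor was the more abundant message in every control and the activator in every alcohol liver.

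Bhlhe40 and Bhlhe41 encode basic helix-loop-helix repressors that compete for E-boxes. Bhlhe40 stood at 10.5, 9.78, 6.91, 9.80 and 12.3 FPKM in Ctrl, at 13.3, 27.4, 18.0, 22.6 and 28.7 FPKM in Alc and at 21.3, 24.5, 22.2, 24.2 and 20.8 FPKM in Alc UA. The alcohol livers lay above the controls, though Alc 1 lay only just above Ctrl 5. The means were 9.86 ± 1.93, 22.01 ± 6.44 and 22.6 ± 1.69 FPKM (SD, n = 5), with log2 differences of 1.05 ± 0.18 for Alc and 1.14 ± 0.18 for Alc UA. Bhlhe41 was the weakest member. Its Ctrl values were 0.14, 0.19, 0.17, 0.12 and 0.19 FPKM, its Alc values 0.87, 1.29, 1.81, 0.69 and 0.67 FPKM and its Alc UA values 0.99, 1.24, 1.32, 1.42 and 0.77 FPKM. It reached 1 FPKM in exactly 5 libraries, none of them a control, so it passed the filter on low values only through the groups where it is high. The Alc mean was 6.58 times the Ctrl mean, while the log2 difference was 0.80 ± 0.14, since the added 1 outweighs such low values.

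Ciart encodes a repressor of CLOCK and BMAL1 activity, and its promoter holds the 3 E-boxes printed above. It stood at 0.88, 0.69, 0.58, 0.32 and 0.39 FPKM in Ctrl, below 1 FPKM in each liver. In Alc it stood at 17.6, 15.9, 17.0, 7.05 and 8.71 FPKM and in Alc UA at 10.4, 6.81, 13.0, 9.91 and 5.03 FPKM. Its ratio of mean FPKM in Alc to Ctrl was the largest of the members, though not that in Alc UA to Ctrl or the log2 difference. The means were 0.572 ± 0.227, 13.2 ± 4.97 and 9.03 ± 3.14 FPKM (SD, n = 5), with a ratio of 23.2 of Alc to Ctrl and log2 differences of 3.11 ± 0.25 for Alc and 2.62 ± 0.25 for Alc UA. Like Bhlhe41 it passed the filter only through the alcohol groups.

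The other 3 genes carry the clock's output into other processes. Usp2 encodes a ubiquitin-specific protease. It stood at 2.38, 3.09, 1.89, 1.49 and 1.09 FPKM in Ctrl, 20.7, 19.6, 21.4, 14.1 and 17.1 FPKM in Alc and 14.6, 12.6, 15.3, 23.0 and 13.6 FPKM in Alc UA. All alcohol livers lay above all controls, with means of 1.99 ± 0.780, 18.6 ± 3.01 and 15.8 ± 4.13 FPKM (SD, n = 5) and a ratio of 9.35 of Alc to Ctrl. Rgs16, which speeds the shut-off of G protein signals, varied most between mice in Ctrl and in Alc UA. Its values were 1.75, 8.95, 3.91, 1.21 and 4.36 FPKM in Ctrl, 103, 31.2, 73.0, 58.6 and 58.8 FPKM in Alc and 69.2, 106, 25.3, 45.1 and 69.3 FPKM in Alc UA. The groups still did not overlap with Ctrl, the means being 4.04 ± 3.06, 65.0 ± 26.2 and 63.0 ± 30.4 FPKM (SD, n = 5), and the coefficient of variation was 75.8% in Ctrl. Upp2 encodes uridine phosphorylase, which splits uridine to uracil and ribose phosphate. It stood at 29.6, 18.4, 32.1, 12.9 and 44.8 FPKM in Ctrl, 174, 182, 173, 138 and 224 FPKM in Alc and 312, 178, 175, 151 and 105 FPKM in Alc UA. It was the most abundant member in each group, with means of 27.6 ± 12.5, 178 ± 30.4 and 184 ± 77.4 FPKM (SD, n = 5). The log2 differences were 2.74 ± 0.18, 3.82 ± 0.42 and 2.75 ± 0.30 for Alc and 2.5 ± 0.18, 3.72 ± 0.42 and 2.73 ± 0.30 for Alc UA, in the order Usp2, Rgs16 and Upp2. As these are whole livers, fewer cells of a type and less RNA per cell cannot be told apart.

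**Figure D3:**
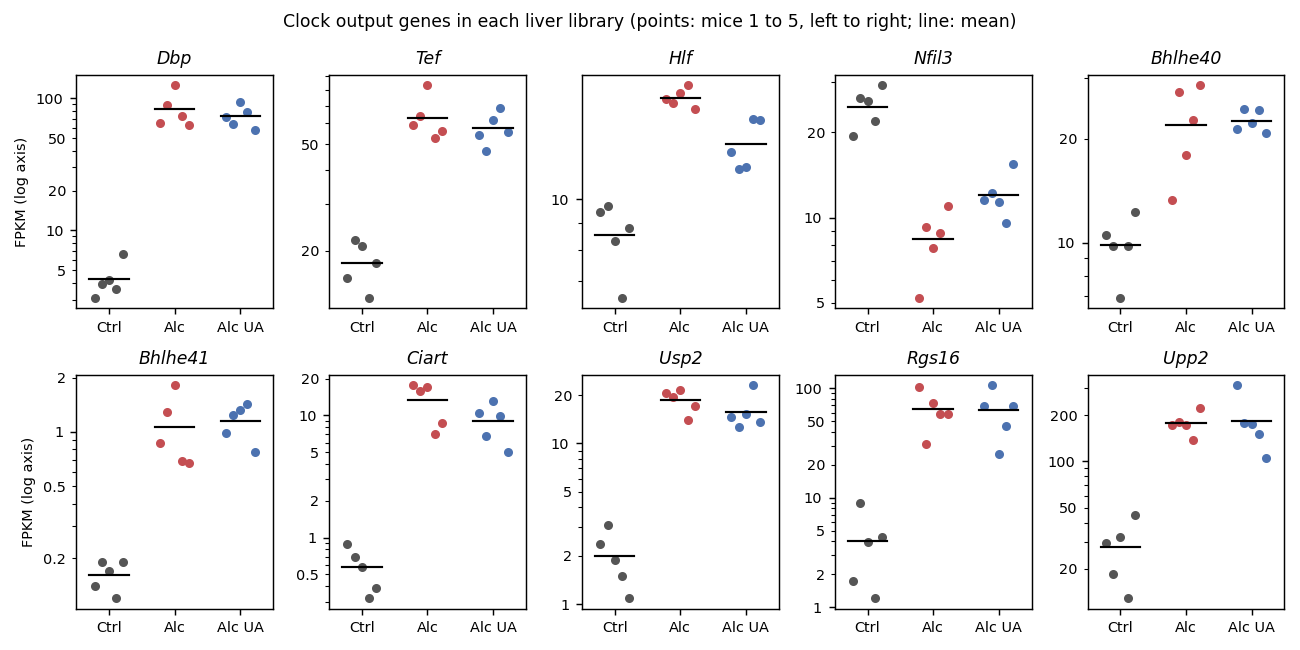
FPKM on a log axis for each of the 10 genes, with 1 point per mouse (1 to 5 from left to right) and a line at the group mean. The alcohol groups lie above Ctrl for 9 genes and below it for Nfil3, without overlap.

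The order of levels, compared per length, differed between the groups. In Ctrl it ran Upp2, Nfil3, Tef, Bhlhe40, Hlf, Dbp, Rgs16, Usp2, Ciart and Bhlhe41, and neighbours overlapped between mice except Tef and Bhlhe40, Usp2 and Ciart, and Ciart and Bhlhe41. In Alc it ran Upp2, Dbp, Rgs16, Tef, Bhlhe40, Usp2, Hlf, Ciart, Nfil3 and Bhlhe41, with no overlap between Upp2 and Dbp, Tef and Bhlhe40, and Nfil3 and Bhlhe41. Alc UA had the same order except that Nfil3 stood above Ciart, and there Upp2 and Dbp, Tef and Bhlhe40, and Ciart and Bhlhe41 did not overlap. Dbp thus moved from sixth place in controls to second place in both alcohol groups.

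Within a group, no mouse was high for all members. Ctrl 4 was lowest for 6 of the 10 genes, and Ctrl 2 and Ctrl 5 were each highest for 5. Among the Alc mice, number 3 was highest for 4 genes and number 4 lowest for 4. Among the Alc UA mice, number 4 was highest for 4 genes and number 5 lowest for 5, while that mouse had the highest Nfil3.

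Against Ctrl, 9 members were higher and 1 was lower in each alcohol group, and all 10 were without overlap between mice. Over all tested genes, 33.3% were called in Alc against Ctrl (1157 higher and 2497 lower) and 42.6% in Alc UA against Ctrl (1152 higher and 3521 lower) by limma with Benjamini-Hochberg adjusted p under 0.05, which is 10.6% higher and 22.8% lower for Alc and 10.5% and 32.1% for Alc UA. Groups did not overlap for 15.8% of genes in Alc against Ctrl (6.18% higher and 9.61% lower) and for 20.2% in Alc UA against Ctrl (5.48% higher and 14.7% lower). Since the members were chosen with Alc against Ctrl known and both comparisons share the Ctrl libraries, nothing is read from these shares. The members' median log2 difference was 2.25 for Alc and 2.07 for Alc UA, beside -0.12 and -0.16 over all tested genes. With median-of-ratios size factors those medians of all genes were -0.01 and -0.0036 and the calls were 2012 higher and 1943 lower for Alc and 2425 higher and 2362 lower for Alc UA, and 9 members were higher and 1 lower under each scaling tried.

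**Figure D4:**
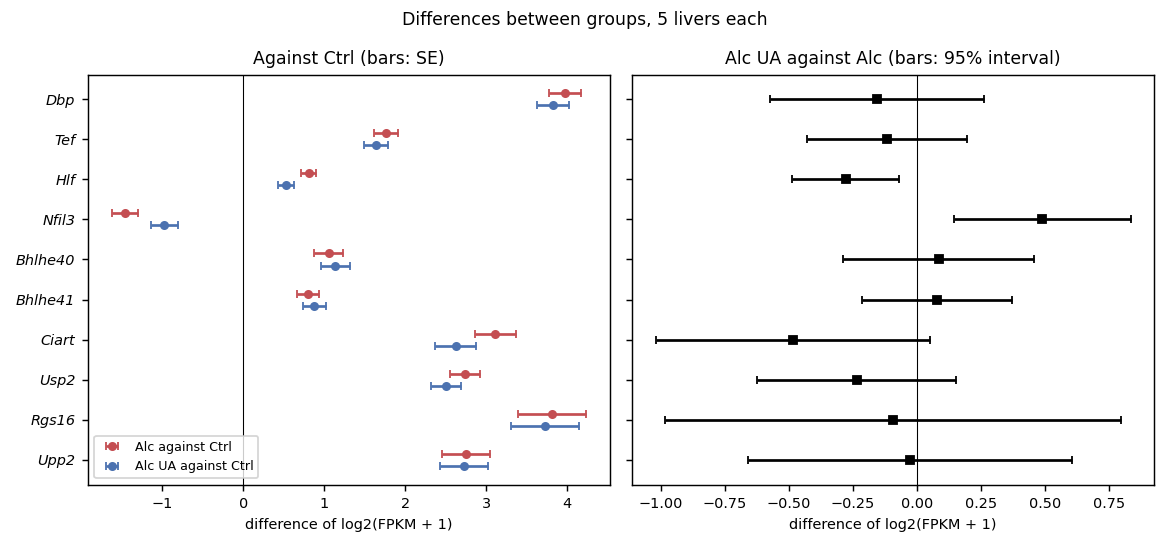
Differences of log2(FPKM + 1) for the 10 genes, against Ctrl with SE on the left and for Alc UA against Alc with 95% intervals on the right. Dbp lies at 3.98 for Alc against Ctrl, and on the right only the intervals of Hlf and Nfil3 leave out 0.

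For Alc UA against Alc, the question was whether UA moved these genes in mice fed alcohol. No member was called by limma over all 10959 genes, with adjusted p between 0.69 and 0.995, and 0.00912% of all tested genes, or 1 gene, were called. That gene was Mup5, named here after its values were seen, whose reads near-identical Mup genes can share. Hlf and Nfil3 had an unadjusted p under 0.05, a level that 6.06% of all genes reached. Their unadjusted limma p-values were 0.0119 and 0.00839. Hlf had a log2 difference of -0.28 ± 0.10 (95% interval -0.49 to -0.07, limma adjusted p = 0.737), with all 5 Alc UA livers below every Alc liver, and of all genes 1.18% were without overlap, 0.894% lower and 0.283% higher. Nfil3 had one of 0.49 ± 0.16 (0.14 to 0.83, limma adjusted p = 0.69), with all 5 Alc UA livers above the Alc mean. Ciart had a difference of -0.49 ± 0.25 (-1.02 to 0.05, limma adjusted p = 0.825), with all 5 Alc UA livers below the Alc mean. Both Hlf and Nfil3 thus stood nearer to their Ctrl levels in Alc UA than in Alc, without passing the correction. The members were chosen with Alc against Ctrl known, and reuse of the same Alc libraries can by itself favour this direction. The same holds for the difference of Dbp and Nfil3 tested below, so no return toward Ctrl is read from either.

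The intervals of the remaining members were wide enough to hold sizeable differences. They ran from -0.57 to 0.26 for Dbp, -0.43 to 0.19 for Tef, -0.29 to 0.46 for Bhlhe40, -0.22 to 0.37 for Bhlhe41, -0.62 to 0.15 for Usp2, -0.98 to 0.80 for Rgs16 and -0.66 to 0.61 for Upp2. In all, 3 members had a difference above 0 and 7 below, with a median of -0.11 beside -0.05 over all tested genes, and with median-of-ratios or quantile scaling 4 were above and 6 below. For log2 Dbp minus log2 Nfil3, Alc UA was lower than Alc by a difference of -0.64 (SE 0.32), with 5 of 5 Alc UA livers below the Alc mean, and an exact two-sided permutation test gave p = 0.0794, where 0.0079 is the smallest possible. Without Alc 5, which had the highest Nfil3 and lowest Dbp of its group, the difference was -0.83 and the exact p = 0.0397, while over all 16 alternatives the difference ran from -0.83 to -0.47 and the exact p from 0.0397 to 0.175.

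The genes whose pattern over the 15 libraries was most like Dbp were Per3, Nr3c2, Aqp11, Nr1d2 and Ngef, with Pearson r of 0.985, 0.971, 0.97, 0.967 and 0.965. Those most like Nfil3 were Wrnip1, Shroom2, Elovl3, Inhbc and Slc16a1, with r of 0.918, 0.903, 0.881, 0.879 and 0.874. The division of the libraries into Ctrl and alcohol groups sets most of these values, and the 15 points share their libraries. Per3 stood at 0.792 ± 0.257 FPKM in Ctrl, 9.70 ± 3.22 in Alc and 8.70 ± 1.59 in Alc UA (SD, n = 5). Elovl3, a fatty acid elongase, stood at 289 ± 92.9, 22.6 ± 4.98 and 29.2 ± 6.51 FPKM.

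The gene lists below, like the members, were chosen with earlier results of these data known. Their counts and p-values against Ctrl are therefore a description and no independent support for the members' differences. Around the members, the core clock genes differed in both directions. Of 17 tested genes of 18 in the core clock list, 6 rose and 3 fell in Alc against Ctrl, and 6 rose and 5 fell in Alc UA against Ctrl. The repressor genes Per2, Per3 and Cry2 rose in Alc by 1.91 ± 0.16 (limma adjusted p = 1.67e-06), 2.54 ± 0.17 (2.41e-07) and 1.01 ± 0.14 (0.000227), and Per1 by 0.72 ± 0.17 (0.00631). Nr1d2, which encodes a repressor of Arntl, rose by 1.41 ± 0.13 (limma adjusted p = 7.43e-06). The activator genes Arntl, which encodes BMAL1, and Clock had log2 differences of -2.27 ± 0.12 (limma adjusted p = 2.84e-08) and -0.60 ± 0.09 (0.00031), and Cry1 one of -0.80 ± 0.20 (0.00707), and all 3 fell. Arntl stood at 9.74 ± 1.79 FPKM in Ctrl, 1.21 ± 0.194 in Alc and 0.912 ± 0.282 in Alc UA (SD, n = 5). Nr1d1 was not called in Alc against Ctrl (1.27 ± 0.50, limma adjusted p = 0.0639), and Ctrl 5 stood at 50.9 FPKM beside 3.70 to 12.9 in the other controls. Without Ctrl 5 the difference was 1.79 and the limma adjusted p = 0.00179. Npas2, a partner of BMAL1 and too low to be tested, stood at 0.69 to 2.15 FPKM in Ctrl and at 0.03 to 0.14 FPKM in both alcohol groups.

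Genes that PAR bZIP factors are known to drive in mouse liver mostly moved upward. Of 20 tested of 22 on the list, 12 rose and 2 fell in Alc against Ctrl, and 11 rose and 1 fell in Alc UA against Ctrl, with list medians of 0.74 and 0.85. Cyp2a5, a cytochrome P450 that can share reads with near-identical Cyp2a4, rose by 3.48 ± 0.48 in Alc (limma adjusted p = 0.000192) and 2.92 in Alc UA. Por, the reductase that gives electrons to cytochromes P450, rose by 1.27 ± 0.15 in Alc (limma adjusted p = 6.16e-05) and 1.58 ± 0.15 in Alc UA (7.22e-06). Alas1, the first enzyme of heme synthesis, Ppara, a nuclear receptor for fatty acids, and Fmo5, a flavin monooxygenase, rose in Alc by 0.96 ± 0.17, 0.77 ± 0.14 and 0.90 ± 0.13 (limma adjusted p = 0.000835, 0.0013 and 0.00025). The 2 genes that fell in Alc were Ehhadh, with -1.19 ± 0.38 (limma adjusted p = 0.0258), and Fabp1, with -1.02 ± 0.27 (0.0103). In Alc UA the 1 that fell was Fabp1, with -1.09 ± 0.27 (limma adjusted p = 0.00483). The list holds Per1, which also counts among core clock genes. No gene of this list was called in Alc UA against Alc, nor was one of any other list here.

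Other rhythmic genes were divided. Of 30 tested, 7 rose and 8 fell in Alc against Ctrl, and 10 rose and 8 fell in Alc UA against Ctrl. Wee1, a kinase that delays mitosis, rose by 1.53 ± 0.18 (limma adjusted p = 6.42e-05) in Alc and Coq10b by 0.88 ± 0.16 (0.00121). Elovl3 and Id2, an inhibitor of helix-loop-helix factors, fell, with log2 differences of -3.58 ± 0.21 (limma adjusted p = 6.71e-08) and -1.44 ± 0.17 (5.12e-05). Temperature-linked genes moved downward where they moved, as 7 of 11 fell and 0 rose in each alcohol group against Ctrl. Among them Hspa1a, a heat shock chaperone that can share reads with Hspa1b, had -3.11 ± 0.56 (limma adjusted p = 0.00108) and Hspb1 -1.78 ± 0.35 (0.00182) in Alc.

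Of 18 feeding and glucose-response genes, 5 rose and 2 fell in Alc and 3 rose and 2 fell in Alc UA against Ctrl. List medians were 0.04 and 0.14, beside -0.12 and -0.16 over all tested genes. Among the 2 that fell in Alc was Ppp1r3c, a glycogen-targeting subunit of a phosphatase, with -1.91 ± 0.27 (limma adjusted p = 0.000238). Of 12 tested pyrimidine genes of 15, the pathway of Upp2, 4 rose and 3 fell in Alc and 3 rose and 6 fell in Alc UA. Among those that fell in Alc were Cda, cytidine deaminase, and Tymp, thymidine phosphorylase, with -0.84 ± 0.11 (limma adjusted p = 9.89e-05) and -0.74 ± 0.14 (0.00137). Among those that rose in Alc were Umps and Dpys, with smaller log2 differences of 0.39 and 0.43. Of 7 tested other Rgs genes of 15, only Rgs5 was called in Alc (-0.64 ± 0.23, limma adjusted p = 0.0468), and leaving out any 1 of 9 libraries ended that call, with adjusted p from 0.0547 to 0.113. In Alc UA against Ctrl none of these 7 genes was called, Rgs5 included. Of 22 tested ubiquitin-specific proteases of 23, 3 rose and 2 fell in each alcohol group. Without the Ctrl 5 library, 3 Rgs genes were called in Alc and 2 in Alc UA, and the feeding list had 9 calls in Alc UA.

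**Figure D5:**
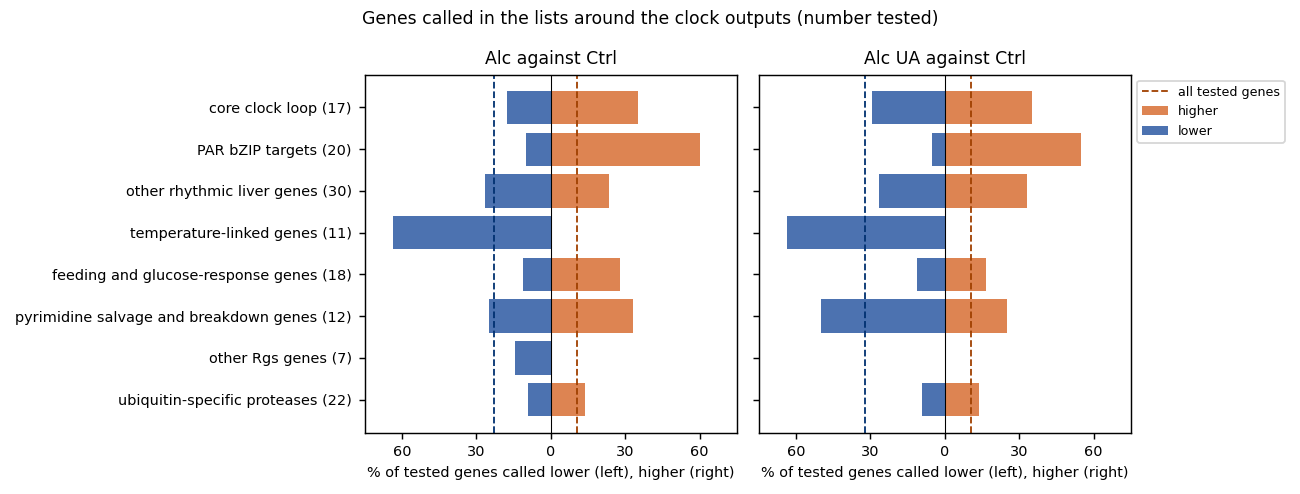
Percent of tested genes called lower (left) and higher (right) in each list, with the number tested in parentheses and a dashed line for all tested genes. In PAR bZIP targets 12 of 20 genes rose in Alc against Ctrl.

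Markers of other cell types moved beside these differences. Of 14 sinusoidal endothelial markers, 13 fell in Alc and 14 in Alc UA against Ctrl, with a summed level of 174 to 501 FPKM in Ctrl, 75.3 to 174 in Alc and 82.1 to 106 in Alc UA. Of 6 tested erythroid transcripts 5 fell in each, with a summed level of 1436 to 8806 FPKM in Ctrl, 579 to 1006 in Alc and 350 to 1038 in Alc UA. All 5 tested T and NK cell markers of 15 fell in Alc and 4 in Alc UA, and 4 of 5 tested B and plasma cell markers fell in both, with summed levels of 6.61 to 51.2 and 8.14 to 24.6 FPKM in Ctrl, 4.08 to 13.0 and 2.78 to 8.12 in Alc, and 4.31 to 12.8 and 3.40 to 16.4 in Alc UA. Of 10 hepatocyte markers 3 fell in each, with summed levels of 61499 to 74558 FPKM in Ctrl, 56955 to 69934 in Alc and 38426 to 59694 in Alc UA. Of 13 Kupffer markers 0 were called in Alc and 1, Cd5l, rose in Alc UA. In Alc, 1 of 10 tested stellate markers, 1 of 4 cholangiocyte markers and 1 of 4 neutrophil markers fell, and in Alc UA 1, 1 and 0. No marker was at 0 in every library of a group. Their part in the members' differences was not tested.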

How the data were processed

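Per the labels' protocols, total RNA of 15 livers was phenol-chloroform extracted and sequenced as MGISEQ libraries. FPKM values for 18510 gene symbols, to 2 decimals, are what the authors deposited. The submitters' processing notes list RSEM 1.2.8, HISAT2 2.1.0, DESeq, StringTie and Bowtie2 2.2.5 with no role, and the sources used here do not give build, annotation or strand setting. Column names were matched to sample titles through their letter and number. Of these rows, 25 were symbols turned into dates (15 tested, not named) and 223 were 0 throughout.

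FPKM are not counts, so limma 3.58.1 (R 4.3.3) was run on log2(FPKM + 1) with a trend of variance on mean. All 15 libraries and the 10959 genes that reached 1 FPKM in 5 or more of them entered. P-values were adjusted by Benjamini-Hochberg over all tested genes, at 0.05. The fit left 12 residual degrees of freedom, to which the variance prior of limma added more for its p-values and 95% intervals. The fit was tested on simulated data in which 200 genes were changed, 50 at each size. For Alc UA against Alc it recovered 60% of changes of 0.5 log2 and 96% of changes of 1. False calls were 5.35% there, 7.41% for Alc against Ctrl and 4.89% for Alc UA against Ctrl. Recovery depends on how many genes change, and in the real data only 1 gene was called in Alc UA against Alc. The recovered shares therefore do not say which changes of a member would have been called. The ratio of Dbp to Nfil3 was tested by exact permutation. Nothing but the labels' numbering and count of mice says that the 5 libraries of a group are separate animals. Lowest values of 0.01 were too coarse to recover reads, so no depth or counting interval is given.

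The 10 genes and all gene lists were chosen with earlier results of these data known. Named besides the members are core clock genes, up to 4 genes per list with the smallest p in a comparison, the 5 genes most like Dbp and like Nfil3, and up to 3 markers per list, of which a part is printed and 1 gene is not reported here. Ehhadh and Fabp1 are named in addition, as the PAR bZIP targets that fell. Alternatives changed the pseudocount, filter, scaling, variance prior, library weights, libraries fitted and replicate block. Plots were made in Python 3.11.15 with matplotlib 3.10.9.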

Additional observations from a re-analysis of the deposited data

Results flagged for a closer look

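In 9 of 132 groups of 5 livers (6.82%), the highest or lowest value lay farther from its neighbour than Dixon's 95% limit of 0.71 of the group's range, where chance flags about 1 group in 20. Among the members this held in 1 of 30 groups. Usp2 stood at 22.97 FPKM in Alc UA 4, while the other Alc UA livers lay between 12.6 and 15.27 FPKM. Alc 1 was high for the activator genes of the core loop, with Arntl at 1.55 FPKM beside 1.07 to 1.18 in the other Alc livers and Clock at 3.71 FPKM beside 2.66 to 2.83. Alc 3, which had the highest Dbp of its group, had Per3 at 15.25 FPKM beside 6.83 to 8.89. Ctrl 5 had Nr1d1 at 50.87 FPKM beside 3.7 to 12.94 in the other controls. Hspa1a stood at 119.87 FPKM in Ctrl 4, beside 12.16 to 41.45, and at 11.01 FPKM in Alc 4, beside 1.15 to 2.17. In the Alc UA group, Ngef stood at 20.4 FPKM in mouse 4, beside 17.8 to 18.51, and Shroom2 at 3.32 FPKM in mouse 2, beside 2.78 to 2.89.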

How the results depend on the processing

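No member was called in Alc UA against Alc under any of 27 alternatives, where the lowest limma adjusted p was 0.363. Of 10959 genes 1 was called there as reported, 2 with libraries scaled to the same FPKM sum, 3 with library weights, 0 with only the 2 groups in the fit, 2 without Ctrl 1 and Ctrl 5, and 1 to 5 when 1 library was left out, the 5 without Alc UA 4 and 4 without Ctrl 1. With the replicate number as a replicate block 0 genes and 0 members were called. The labels do not say that equal numbers pair the mice. Same-numbered libraries had correlations of their deviations from -0.302 to 0.287, with 5 of 15 over 0.1. Libraries with different numbers were not set beside them, so these values do not decide whether the mice are paired. A sign-flip test of Dbp minus Nfil3 by that block, chosen after seeing the data, gave an exact p = 0.0625. This is the smallest that 5 pairs allow, so the test could not pass 0.05 and says nothing about stability. That difference was -0.83 (exact p = 0.0397) without Alc 5 and ran from -0.83 to -0.47, with exact p up to 0.175, over its 16 alternatives, the same range as with single libraries left out. Alc against Ctrl gave 3654 calls, 5870 with library weights and 2569 to 4487 without 1 library. Alc UA against Ctrl gave 4673 calls, and 3837 to 5661 over all alternatives. With a pseudocount of 0.1, the log2 differences of Alc against Ctrl were 2.07 for Bhlhe41, 4.28 for Ciart and 3.23 for Usp2, and that of Rgs16 was 2.94 with library weights. Bhlhe41 failed the filter in 6 alternatives, which gave it no value. Over the alternatives, calls against Ctrl ranged, for Alc and then Alc UA, from 6 to 12 and 3 to 10 for feeding genes, 0 to 3 and 0 to 2 for other Rgs genes, and 3 to 10 and 4 to 12 for ubiquitin-specific proteases. No called result changed direction, while the uncalled differences of Alc UA against Alc kept their sign in 26 of 27 alternatives for Dbp, 25 for Bhlhe40, 24 for Rgs16 and 22 for Upp2. The read depth is unknown, and FPKM of near-identical genes may be divided in ways the table does not show.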
